A study of Capra hircus with 12 samples.

Results

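A set of 253 of the 20486 genes listed for embryonic goat skin fell stepwise over the 3 stages sampled, from embryonic day 45 (E45) to 55 (E55) to 65 (E65). A gene was a member when every E45 embryo had a higher value than every E55 embryo, every E55 embryo a higher value than every E65 embryo, the mean at E45 was at least 1 RPKM, and that mean was at least 2 times the mean at E65. Genes were left out when the smallest of their 6 values at E45 and E55 was at least 2 times the largest E65 value plus 0.1, which sets all of their E45 and E55 values apart from E65. RPKM is a read count scaled to the length of the gene and to the number of reads in the library, so levels can be compared between genes. The members were selected on all 9 RPKM values of each gene, and the order of the stages is therefore a property of the rule and not a finding. The values below describe the members.

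The skin came from 9 unrelated embryos of the Inner Mongolia cashmere goat (Capra hircus), a breed kept for its fine undercoat, with 3 embryos at each stage and 1 polyadenylated RNA library per embryo. The tissue was skin from the mid flank, which the study's text also calls skin epidermis, and no separation of cell types or layers is described. The embryos are called E45-1 to E65-3 after their stage and number. As 0 of 20486 identifiers matched an entry of the goat gene table used here, the members are described by their values, their chromosome and 2 identifiers, and the tissue label could not be checked against marker genes.

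Mammalian skin consists of an epidermis of keratinocytes over a dermis of fibroblasts, vessels, nerves and immune cells. Before hair follicles appear, the dermis is a loose mesenchyme. The study states that in the cashmere goat the epidermis completes its structure between E45 and E55. A follicle begins as a placode, a local thickening of the epidermis that exchanges signals such as WNT, EDA and BMP proteins with a condensate of dermal cells beneath it. In the cashmere goat the primary follicles, which make guard hair, start before the secondary follicles, which make the undercoat. A gene that falls over this window may be switched down within cells, or the cells that express it may become a smaller part of the tissue. In RNA from a piece of tissue, fewer cells of a type and less RNA per cell cannot be told apart.

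The orders themselves were met by more genes than the set holds. Every E45 value was above every E55 value in 2484 genes, which is 12.1% of those listed, and every E55 value was above every E65 value in 2518 genes, or 12.3%. Both orders held in 385 genes (1.88%). Of these, 358 had a mean of at least 1 RPKM at E45 and 283 also fell at least 2 times. Leaving out the 30 genes set apart from E65 in this way gave the 253 members, which are 1.52% of the 16605 genes with a mean of at least 0.1 RPKM over the 9 embryos. All 253 members passed that filter.

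Just inside the threshold on the mean at E45 was a gene on chromosome 10 with a mean of 1.01 RPKM, and just outside it a gene on chromosome 7 with 0.997 RPKM. For the fold, the nearest member on chromosome 29 had a mean at E45 that was 2.00 times its mean at E65, and the nearest gene outside, on chromosome X, had 1.99 times. For the genes left out, the smallest value at E45 and E55 was 1.96 times the largest E65 value plus 0.1 in the nearest member, on chromosome 16, and 2.00 times in a gene on chromosome 24 that was left out.

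Most members were expressed at a low to moderate level at E45 and at a low level at E65. The median of their stage means was 6.86 RPKM at E45 (lowest 1.01, highest 502), 2.76 RPKM at E55 (highest 337) and 1.27 RPKM at E65 (highest 247). The corresponding medians over all genes tested were 7.65, 6.64 and 6.70 RPKM. At E45, 96 members were at 10 RPKM or more and 5 at 100 RPKM or more. At E65, 110 members (43.5%) were under 1 RPKM and 18 were under 0.1 RPKM. A value of 0 was listed in at least 1 E65 embryo for 7 members and in all 3 for 1 of them, a gene on chromosome 13 with 0.25, 6.57 and 13.35 RPKM at E45 and 0.08, 0.10 and 0.09 RPKM at E55. Most members were thus still listed above 0 at E65. As the rule leaves out genes whose E45 and E55 values all lie well above E65, a complete loss at E65 is largely excluded by the selection.

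Summed over the members, the level was 3539, 4191 and 4516 RPKM in the 3 E45 embryos, 1828, 2067 and 2057 RPKM in the E55 embryos, and 1132, 1130 and 1107 RPKM in the E65 embryos. As a share of all RPKM in the library this was 0.744% ± 0.0839 at E45, 0.354% ± 0.0237 at E55 and 0.191% ± 0.00327 at E65 (SD, n = 3 each). The members were thus a small part of the transcriptome at each stage, and the spread between embryos was widest at E45. Without the most abundant member these shares were 0.652%, 0.294% and 0.149%.

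On the scale of log2(RPKM + 0.1), the median change of the members was -1.10 from E45 to E55, -0.99 from E55 to E65 and -2.20 over the whole period. The medians over all genes tested were -0.12, 0.06 and -0.07, so the earlier changes are to be read against a shift of -0.12 in these libraries, which became 0.03 after median scaling. The added 0.1 makes the falls of genes at low RPKM look smaller than they are. The whole fall ranged from 0.97 to 6.74 on this scale, as a log2 change of -0.97 in the member that fell least and -6.74 in the member that fell most. It was at least 2 in 138 members, at least 3 in 54, at least 4 in 18 and at least 5 in 7.

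**Figure D1:**
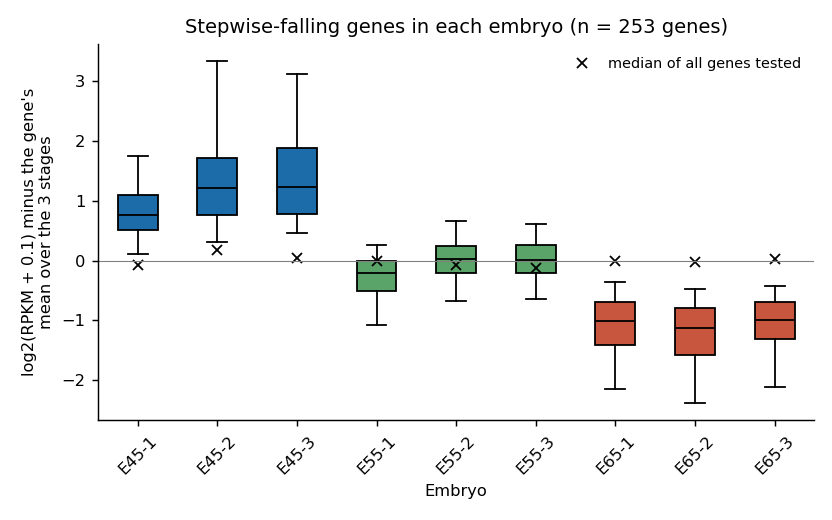
Box plots of the 253 stepwise-falling genes in each of the 9 embryos, as log2(RPKM + 0.1) minus the gene's mean over the 3 stages; boxes span the quartiles with the median as a line, whiskers the 5th to 95th percentile, and crosses give the median of all genes tested. The medians are 0.77, 1.21 and 1.22 at E45, -0.22, 0.03 and 0.01 at E55, and -1.02, -1.13 and -0.99 at E65, while the crosses stay between -0.13 and 0.18.

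The share of the fall that had been reached at E55 had a median of 53.7% in the members, with the quartiles at 42.0% and 62.3%. Since the rule asks for a fall in both periods and leaves out genes set apart from E65, a share near the middle is largely fixed by it. Over all genes tested, rising ones included, the same share had a median of 41.1% and quartiles at -16.9% and 94.9%. It was between 33.3% and 66.7% in 178 members, above 66.7% in 48 and below 33.3% in 27. The earlier fall was the larger in 154 members and the later in 99. Both falls were at least 1 on the log2 scale in 84 members. The early group had a median of 5.02 RPKM at E45, 0.672 at E55 and 0.288 at E65. The late group was more abundant, with a median of 11.8 RPKM at E45, 9.15 at E55 and 3.51 at E65. For comparison, the 30 genes left out had a median share of 31.6% at E55 (highest 57.6%), and low shares are favoured by the rule that left them out.

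The extremes of this share show both shapes. In the member that fell earliest, on chromosome 17, the values were 0.32, 4.17 and 5.15 RPKM at E45, 0.10, 0.06 and 0.11 RPKM at E55, and 0.03, 0.05 and 0.03 RPKM at E65. It had reached 88.1% of its fall at E55, and 1 of its E45 embryos was far below the others. All of its E55 and E65 values were near or under the added 0.1. This makes its later fall, -0.47 as a log2 change, look smaller and its share at E55 higher. In the member that fell latest, on chromosome 18, the values were 17.66, 18.18 and 20.30 RPKM at E45, 14.31, 14.47 and 17.36 RPKM at E55, and 5.65, 4.99 and 7.37 RPKM at E65. It had reached 17.3% of its fall at E55, and its highest E55 value lay just under its lowest E45 value.

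**Figure D2:**
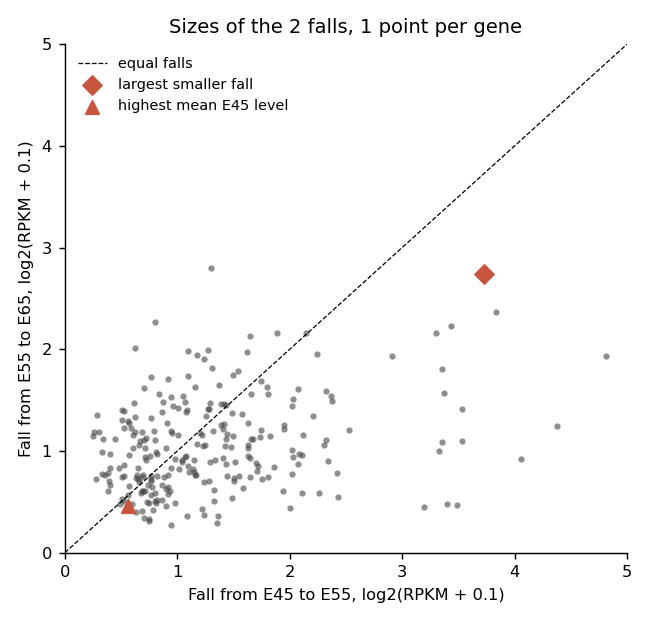
Each of the 253 members as a point, with its fall from E45 to E55 on the horizontal axis and from E55 to E65 on the vertical axis, both as differences of stage means of log2(RPKM + 0.1); the dashed line marks equal falls. Points below the line (154) fell more before E55, and those with an earlier fall of at least 3 (16) form a sparse tail at the right.

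By level at E45, the 50 members under 3 RPKM at E45 had a median whole change of -2.58, the 107 from 3 to 10 RPKM -2.22, and the 96 at 10 RPKM or more -1.85.

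The margins between stages were narrow in many members. The lowest E45 embryo was above the highest E55 embryo by a median of 0.38 on the log2 scale, and the lowest E55 embryo was above the highest E65 embryo by a median of 0.36. The margin was at least 1 in 24 members between E45 and E55 and in 3 between E55 and E65. The later margin is limited by the rule, as the 30 genes left out by its last condition had later margins of 1.04 or more. The counts at the earlier and the later border are therefore not to be compared. It was under 0.1 in 40 members at the earlier border and in 34 at the later border. Both margins were at least 0.5 in 34 members.

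The most abundant member at E45 was the gene listed as goat_GLEAN_10004718_gene on chromosome 16. Its values were 586.90, 420.89 and 497.25 RPKM at E45, 358.77, 324.34 and 327.26 RPKM at E55, and 223.99, 293.92 and 224.04 RPKM at E65. E65-2 was the highest of the E65 embryos and came close to the lowest E55 embryo. The means were 502 ± 83.1, 337 ± 19.1 and 247 ± 40.4 RPKM (SD, n = 3 each), and the mean at E45 was 2.03 times that at E65, near the threshold of the rule. The log2 changes were -0.56 and -0.46 in the earlier and the later period, neither of them called by limma with Benjamini-Hochberg adjustment (adjusted p = 0.108 and 0.113). This gene had 55.3% of its fall behind it at E55.

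The member with the largest smaller fall, that is, the gene for which both falls were large, was listed as GOAT_ENSP00000359583-D3_gene on chromosome 26. Its values were 27.65, 16.86 and 17.74 RPKM at E45, 0.39, 5.41 and 1.25 RPKM at E55, and 0.21, 0.13 and 0.07 RPKM at E65. The E55 embryos differed widely, with E55-1 near the E65 embryos and E55-2 well above them. The means were 20.8 ± 5.99, 2.35 ± 2.68 and 0.137 ± 0.0702 RPKM (SD, n = 3 each). The log2 changes were -3.72 and -2.74, neither of which was called by limma with Benjamini-Hochberg adjustment (adjusted p = 0.0512 and 0.0532). With an embryo left out they ran from -4.64 to -2.90 and from -3.57 to -1.82, and with pseudocount 1 the later change was -1.26. Its mean at E45 was 152 times that at E65.

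**Figure D3:**
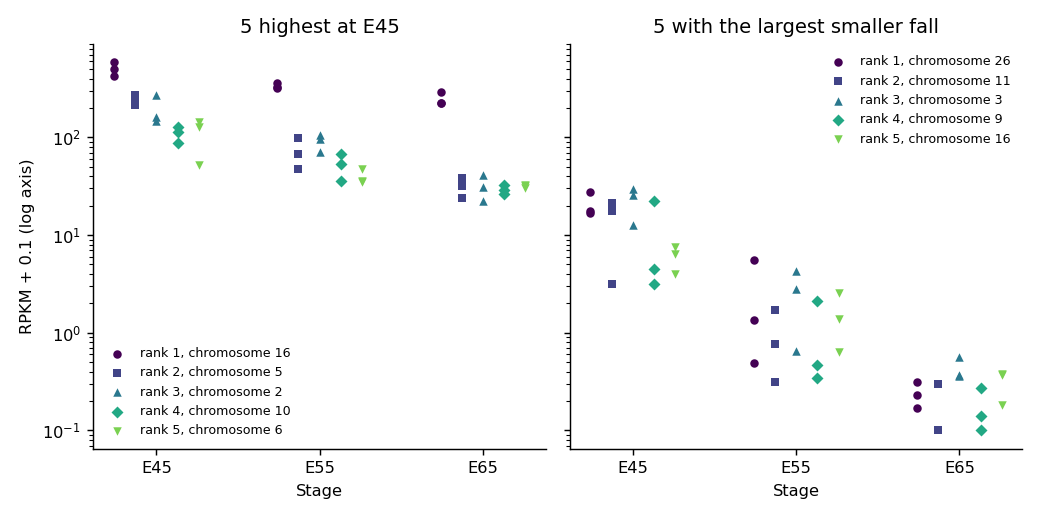
RPKM + 0.1 on a log axis in each of the 9 embryos, by stage, for the 5 members highest at E45 (left) and the 5 with the largest smaller fall (right); each symbol is 1 embryo and each colour and marker 1 gene. The abundant members at the left ended at 22.39 RPKM or more in every E65 embryo, whereas those at the right were at 0.46 RPKM or less.

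The second most abundant member, on chromosome 5, had 269.54, 241.27 and 215.90 RPKM at E45, 68.00, 98.30 and 47.29 RPKM at E55, and 38.15, 31.59 and 23.78 RPKM at E65. It fell 7.77 times over the period, most of it before E55, as 61.3% of its log2 fall had been reached there. The third, on chromosome 2, had 145.94, 271.70 and 163.10 RPKM at E45, 70.79, 96.45 and 105.27 RPKM at E55, and 31.33, 22.39 and 41.61 RPKM at E65. This gene fell more after E55, with 40.7% of its fall reached there. The fourth, on chromosome 10, fell from a mean of 109 RPKM to 52.1 and 29.2 RPKM, and the fifth, on chromosome 6, from 108 to 39.0 and 31.5 RPKM. In the fifth, E45-1 had 51.90 RPKM against 127.01 and 145.02 in the other E45 embryos, so its mean at E45 rests on E45-2 and E45-3.

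The largest fall of all members was that of another gene on chromosome 26, with a log2 change of -6.74. Its values were 3.97, 75.09 and 140.48 RPKM at E45, 0.67, 1.40 and 1.59 RPKM at E55, and 0.44, 0.09 and 0.24 RPKM at E65. E45-1 was again far below the other embryos of its stage. The same was seen in the gene on chromosome 11 that ranked next for the smaller fall, with 3.07, 17.46 and 21.33 RPKM at E45, 0.21, 0.67 and 1.61 RPKM at E55, and 0.00, 0.00 and 0.20 RPKM at E65.

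An earlier fall of at least 3 on the log2 scale, a threshold chosen after the values were seen, was found in 16 members on 13 chromosomes. Their median level was 2.53 RPKM in E45-1 against 15.3 in E45-2 and 16.9 in E45-3, and then 0.390, 0.555 and 0.810 RPKM in the E55 embryos. E45-1 was the lowest E45 embryo in 12 of the 16, in 137 of the other 237 members and in 52.9% of all genes tested. E45-2 and E45-3 were both at least 3 times E45-1 in 10 of the 16. The gene with both falls large went the other way, as E45-1 was its highest embryo. Among the other 237 members the median levels were closer, at 5.44, 6.75 and 7.47 RPKM at E45, and E45-2 and E45-3 were both at least 3 times E45-1 in 18. Many of the steep falls in this tail were therefore measured with a wide spread between E45 embryos.

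The rule sets no order among the embryos of a stage, but its last condition depends on the lowest E55 value of each gene. The E55 values below are therefore not free of the selection. E55-1 was the lowest of the E55 embryos in 155 of the 251 members without a tie (61.8%), whereas over all genes tested it was the lowest in 25.2% and the highest in 43.9%. With a member's mean at E45 set to 0% and its mean at E65 to 100%, the median position was 62.1% in E55-1, 49.3% in E55-2 and 50.8% in E55-3. With the 30 genes left out by that condition put back, E55-1 was the lowest in 181 of 281 genes without a tie (64.4%), a higher share than in the members alone. These shares and positions come from the values that chose the members and are given as a description. The median of all genes tested was 6.77 RPKM in E55-1, 6.65 in E55-2 and 6.19 in E55-3, and the part of library scaling in this order was not tested.

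At E45, E45-1 was the lowest embryo in 149 of 253 members (58.9%), and over all genes tested in 52.9%. Its median position was at 11.1% of the fall, against -3.40% in E45-2 and -7.52% in E45-3. E45-3 was the highest in 49.8% of the members but in 28.3% of all genes tested, where E45-2 was the highest more often (48.2%). At E65, E65-2 was the lowest in 48.8% of the members and in 37.7% of all genes tested. The members share libraries, so these shares describe the embryos and were not tested.

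**Figure D4:**
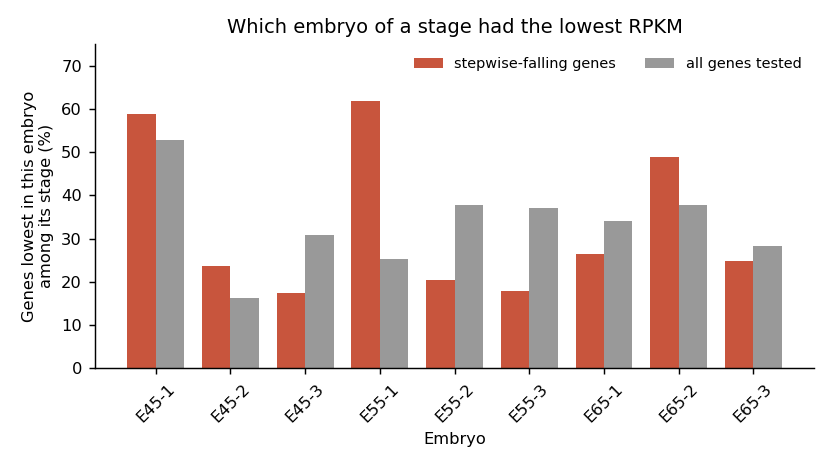
Bars give the percentage of genes whose lowest RPKM within a stage was in each embryo, for the stepwise-falling genes (red) and all genes tested (grey), leaving out ties. E55-1 was the lowest E55 embryo in 61.8% of the members but in 25.2% of all genes tested, and E45-1 the lowest E45 embryo in 58.9% and 52.9%.

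The spread within stages was wider in the members than over all genes with a mean of at least 1 RPKM at E45. The levels of these groups were not alike at E65, with medians of 1.27 RPKM in the members and 10.5 RPKM in the wider group, which includes the members. The coefficient of variation (SD over mean, n = 3, leaving out the member listed at 0 in all E65 embryos from that stage) had medians of 25.3%, 17.8% and 23.3% in the order of the stages, against 18.5%, 14.4% and 14.5% over the genes with a mean of at least 1 RPKM at E45. Over all genes tested, which include genes near 0, the medians were 21.8%, 17.6% and 16.7%. The difference from the genes of at least 1 RPKM was largest at E65, where 110 members were under 1 RPKM.

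For each gene the falls were also compared with the replicate error, in a limma fit of all 16605 genes with Benjamini-Hochberg adjustment, calling a gene at an adjusted p under 0.05 and an absolute log2 change of at least 1. As the rule used the same contrasts, nothing about the members can be read from their counts, which say only how often single falls stood out from the error. In E65 vs. E45, 251 members were called as decreased, where 9.21% of all genes tested were. The other 2 had log2 changes of -0.97 and -0.99, smaller than the threshold. In E65 vs. E55, 58 members were called as decreased (3.07% of all genes), and in E55 vs. E45 16 members were (0.494% of all genes). Only 2 members were called in all 3 comparisons, while 179 were called over the whole period and in neither of its parts. At an unadjusted p under 0.05 in limma, 223 members were lower over the earlier period, as were 13.1% of all genes tested, and 187 over the later, as were 11.4%. The rule asked for separate stages and a mean at E45 at least 2 times that at E65. The high count over the whole period is therefore largely set by the selection, and no conclusion is drawn from these counts.

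How many members were called over the earlier period changed with the embryos used, and so did the number of all genes called. Counts and shares of all genes called in this paragraph are of decreased genes. Without E45-1, 109 members were called as decreased, with 6.45% of all genes. Without E45-2, E45-3, E55-1, E65-1 or E65-3 no member was called by limma. Of all genes tested, 0, 4, 2, 1 and 3 were then called as decreased. In these fits 179 to 224 members were lower at an unadjusted p under 0.05, as were between 8.38% and 12.2% of all genes. With the replicate number as a block 9 members and 0.265% of all genes were called (limma with Benjamini-Hochberg adjustment throughout). In E65 vs. E55, 80 members were called without E45-1 (597 of all genes) and 16 without E55-3 (92 of all genes). There were 21 without E55-2 (199), 24 without E65-2 (264) and 28 without E65-1 (251). Without E65-3 there were 39 (485 of all genes), and with the replicate block 48 (577), against 58 (509) with all embryos and no block.

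The set itself depended on how the libraries were scaled. With each library divided by its median over the genes with a mean of at least 1 RPKM, 201 genes met the rule and 186 of them were members (92.5% of that list and 73.5% of the members). With quantile normalization 145 genes met it, of which 140 were members (96.6% and 55.3%). The loss was mainly at the border between E45 and E55, where the order was lost in 55 members with median scaling and in 80 with quantile normalization. The medians used for scaling were 10.93, 12.45 and 11.70 RPKM at E45, 10.96, 10.61 and 10.10 RPKM at E55, and 11.09, 10.51 and 11.15 RPKM at E65, so that E45-2 and E45-3 were the highest libraries. Under both scalings 134 members met the rule, with median log2 changes of -1.29 and -1.10 in the deposited values.

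With the rule turned round, 135 genes rose stepwise on the deposited values, so falling genes made up 65.2% of both lists. The order alone was met by 1.00% of genes rising and 1.88% falling. This balance changed with the scaling. There were 201 falling and 216 rising genes with median scaling (48.2% falling) and 145 and 268 with quantile normalization (35.1% falling). The excess of falling over rising genes was thus seen with the deposited values and not under either other scaling.

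Leaving out an embryo loosened the orders and gave between 283 and 418 genes, the most without E45-1. Most members met the rule in each case, from 206 without E55-1 to 251 without E55-2. The 47 members lost without E55-1 all met the condition for leaving a gene out once the E55-1 value was removed, against 2 without E55-2 and 4 without E55-3. Under both scalings and without each embryo in turn, 85 members (33.6%) met the rule.

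The members lay on all 30 chromosomes named in the table, which lists a chromosome for each gene but no positions. Chromosome 5 held 20, chromosome 14 held 16, and chromosomes 7 and 18 held 13 each. As a share of the genes tested on the chromosome, chromosome 14 was highest with 3.92% (16 of 408), followed by chromosome 24 with 2.90% (8 of 276), against 1.52% over all chromosomes. Chromosome 28 was lowest with 1 of 255 genes, and chromosome X had 7 of 559 (1.25%). The 16 members on chromosome 14 had median levels of 4.83, 7.86 and 7.99 RPKM in the E45 embryos, 1.14, 1.70 and 1.39 RPKM in the E55 embryos, and 0.485, 0.900 and 0.645 RPKM in the E65 embryos. Their whole change ranged from -4.33 to -1.05 with a median of -2.54, and they had reached a median of 59.4% of it at E55. Whether these genes are neighbours could not be seen without positions, and the shares were not tested.

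**Figure D5:**
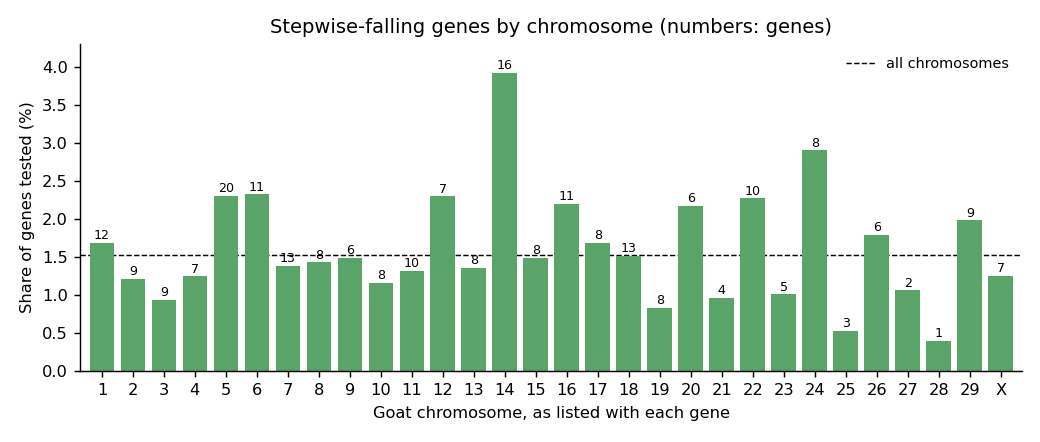
Bars give the stepwise-falling genes as a percentage of the genes tested on each goat chromosome, with the number of members above each bar and the share over all chromosomes (1.52%) as a dashed line. Chromosome 14 stands highest at 3.92% with 16 genes, and chromosome 28 lowest with 1 gene.

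Identifiers with ENSP made up 112 of the members (44.3%, against 41.7% of the genes tested), those with ENSBTAP 95 (37.5% against 43.5%) and those with GLEAN 36 (14.2% against 12.4%). A suffix of D and a number, whose meaning is not given in the sources used here, was carried by 10 further members. Of these, 9 had ENSBTAP (3.56% against 1.27%) and 1 had ENSP (0.395% against 1.13%), the gene on chromosome 26 with both falls large. None of these 10 had another entry with the same identifier stem in the table. Reads that aligned to more than 1 place were discarded by the authors, so the levels of any members with near-identical copies are uncertain.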

How the data were processed

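Per the labels and methods, reads were cleaned by the authors (FASTX-Toolkit) and placed on the goat genome by TopHat, whose build is not given in the sources used here. Uniquely placed reads per gene were scaled to gene length and library size. The deposited RPKM values, which the methods call FPKM, are rounded to 2 decimals, and their libraries sum to between 537791 and 602169 RPKM. Every hundredth from 0.01 to 0.10 occurs among the low values, read counts were not recovered, and the depth cannot be read from the table. Library read totals that the study gives were not used here. The table of small RNA pools was not used here, as none of its entries could be tied to a gene.

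Members were selected on the RPKM values as deposited, with values equal at 2 decimals treated as equal. Stage means, changes and margins were computed on log2(RPKM + 0.1) in Python 3.11.15 with pandas 2.3.3. Genes with a mean of at least 0.1 RPKM entered a linear model of stage alone (limma 3.58.1, R 4.3.3, trended prior variance, Benjamini-Hochberg adjustment). The scripts were tested on simulated data. The embryos are separate animals, and p-values measure the spread between them. Alternatives were other thresholds, pseudocounts, filters and scalings, no trend, a replicate block, and fits lacking 1 embryo.

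The members and lists were chosen with earlier results of these data known. Of the members, the gene with the largest smaller fall and the gene with the highest mean at E45 are given by identifier, and the 5 highest in each ranking and in the whole fall may be described by chromosome. Gene lists and cell type markers were not analysed, as no identifier matched a symbol. Counts of rising genes under other scalings and the members with a steep earlier fall were added after the data were seen.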

Additional observations from a re-analysis of the deposited data

How the results depend on the processing

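The causes of the changes below were not tested. The number of members, 253, became 161 with a minimum mean of 5 RPKM at E45, 145 with quantile normalization and 283 to 418 with an embryo left out (418 without E45-1). The median log2 change in E55 vs. E45, -1.10, became -0.84 with pseudocount 1 and -0.86 with quantile normalization. In E65 vs. E55 it was -0.60 with pseudocount 1. In E65 vs. E45 it was -1.48 with pseudocount 1 and -1.76 with quantile normalization. With an embryo left out these medians ran from -1.17 to -0.98, from -1.02 to -0.94 and from -2.34 to -2.09, and the share of the fall at E55 from 50.6% to 56.3%.

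Counts in brackets in this paragraph are of all genes called as decreased. The 16 members called in E55 vs. E45 (82 of all genes) became 8 (59) with pseudocount 0.01, 6 (48) without a filter, 9 (51) with quantile normalization and 9 (44) with the replicate block. The 58 in E65 vs. E55 (509 of all genes) became 33 (393) with pseudocount 1. With an embryo left out, 0 to 109 members were called by limma over the earlier period, 16 to 80 over the later and 236 to 251 over both. Of all genes tested, 0 to 1071, 92 to 597 and 898 to 1788 were called as decreased in these fits. In E55 vs. E45 there were 5 (20 of all genes) without E55-3 and 4 (21) without E65-2. In the main fit the numbers were not taken as pairs, and the embryos were separate, unrelated animals. Residuals of same-numbered embryos correlated between -0.30 and 0.41 (9 pairs). Differently numbered embryos were not compared, so this range cannot show whether a shared number matters. The block gave 48 members (577 of all genes) over the later period and 251 (1511) over both. With the settings of the report, the gene with both falls large and the most abundant member were called in E65 vs. E45 alone. Over the 17 other settings, the former was called in 17 in E65 vs. E45, in 4 in E55 vs. E45 and in 3 in E65 vs. E55. The most abundant member was called in 13 in E65 vs. E45 and in none of the shorter periods. The 18 members under 0.1 RPKM at E65 have values rounded to steps of 0.01, and the reads behind them cannot be read from the table.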
